A study of Callithrix jacchus with 6 samples.

Results

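The genes followed here encode 7 subunits of the GABA-A receptor, the receptor family through which sevoflurane, an inhaled anaesthetic, is known to act: GABRA2, GABRA4, GABRA5, GABRB1, GABRB2, GABRG3 and GABRD. They were chosen by gene name and not by a measured value, though with earlier results of these data known. They are 7 of the 29320 genes in the deposited tables. The deposited feature table gave 5 of them by symbol, and GABRA5 (ENSCJAG00000001665) and GABRG3 (ENSCJAG00000009977) were found by gene ID through a separate table of gene names. The study used single-cell RNA sequencing on hippocampi of aged common marmosets (Callithrix jacchus) after 6 h of sevoflurane, with 6 h of oxygen as the control. There were 3 sevoflurane and 3 control libraries, made from collagenase-digested, cryopreserved suspensions with 10x Genomics 3′ chemistry (version 3.1), which counts unique molecular identifiers (UMIs) near the 3′ end of transcripts. The labels do not say that replicates came from separate animals, so p-values measure the spread between these samples, part of which may be technical.

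GABA-A receptors are chloride channels opened by GABA, the main inhibitory transmitter of the adult brain, and most are assembled from alpha and beta subunits with either a gamma or a delta subunit. The alpha subunit largely sets where a receptor sits and how it responds to drugs. In rodents GABRA2 protein is enriched at the axon initial segment and at synapses, while GABRA5 and the GABRA4 and GABRD pair form receptors outside synapses that carry a steady inhibitory current, GABRA5 in pyramidal neurons and GABRA4 with GABRD in dentate granule neurons. Beta subunits are needed for assembly and line the sites of several general anaesthetics, and inhaled anaesthetics such as sevoflurane enhance the current through these channels.

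The libraries held 7103 to 8577 cell barcodes and 41164947 to 47886816 UMIs each, and 44344 of 46582 barcodes were kept after doublet removal. A total of 261 barcode sequences occurred in more than 1 library. Clustering without the GABA-A receptor genes gave 34 clusters. By marker genes 25 of them fell into 11 classes, and 9 clusters (2274 cells) stayed unnamed. Glutamatergic neuron-like cells (18472 cells in 10 clusters) were described by cluster number, since some clusters were named by hippocampal and others by cortical marker lists. The leading genes of cluster 13 included THEMIS, from the macrophage or T cell marker list, and DCN, from the fibroblast list. THEMIS is also in the marker list of deep layer cortical neurons. GABAergic neuron-like cells comprised 3777 cells in 4 clusters. Sevoflurane replicate 3 stood apart: it held 9 cells of glutamatergic clusters 6, 8, 15, 20 and 21, where the other 5 libraries held 12339 together. It held 2274 cells of clusters 24 and 26, which led with the cortical layer markers CUX2 and RORB, where the others held 422. It also held 1013 of the 1127 cells of cluster 25, which was pooled with clusters 4 and 5 as oligodendrocyte-like. A cell group was tested between conditions where at least 2 libraries of each condition had 20 of its cells, and thinner libraries were left out, so that sevoflurane replicate 3 took no part in clusters 6, 8, 15, 19, 20 and 21 or in ependymal-like cells. Sevoflurane replicate 2 was likewise left out of cluster 13, fibroblast-like and mural-like cells, and control replicate 2 out of cluster 20 and mural-like cells. The microglia-like class rested on 5 detected markers, none of them among its 10 leading genes.

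Levels are given in CPM, the UMIs of a gene per 1000000 UMIs summed over the cells of a group in a library, as mean ± SD over libraries of both conditions. Cell groups come from the same cells, so levels across them are a description without a test. UMI counts from a 3′ assay depend on how well each gene's 3′ end is annotated, so levels were compared between cell groups for each gene and not between genes. Neighbours in the order of levels mostly differed by less than the larger of their SDs. That was so for 19 of 21 neighbouring pairs for GABRA2, all 21 for GABRA4, and 17 of 21 for GABRB1, among the 22 cell groups ranked.

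**Figure D1:**
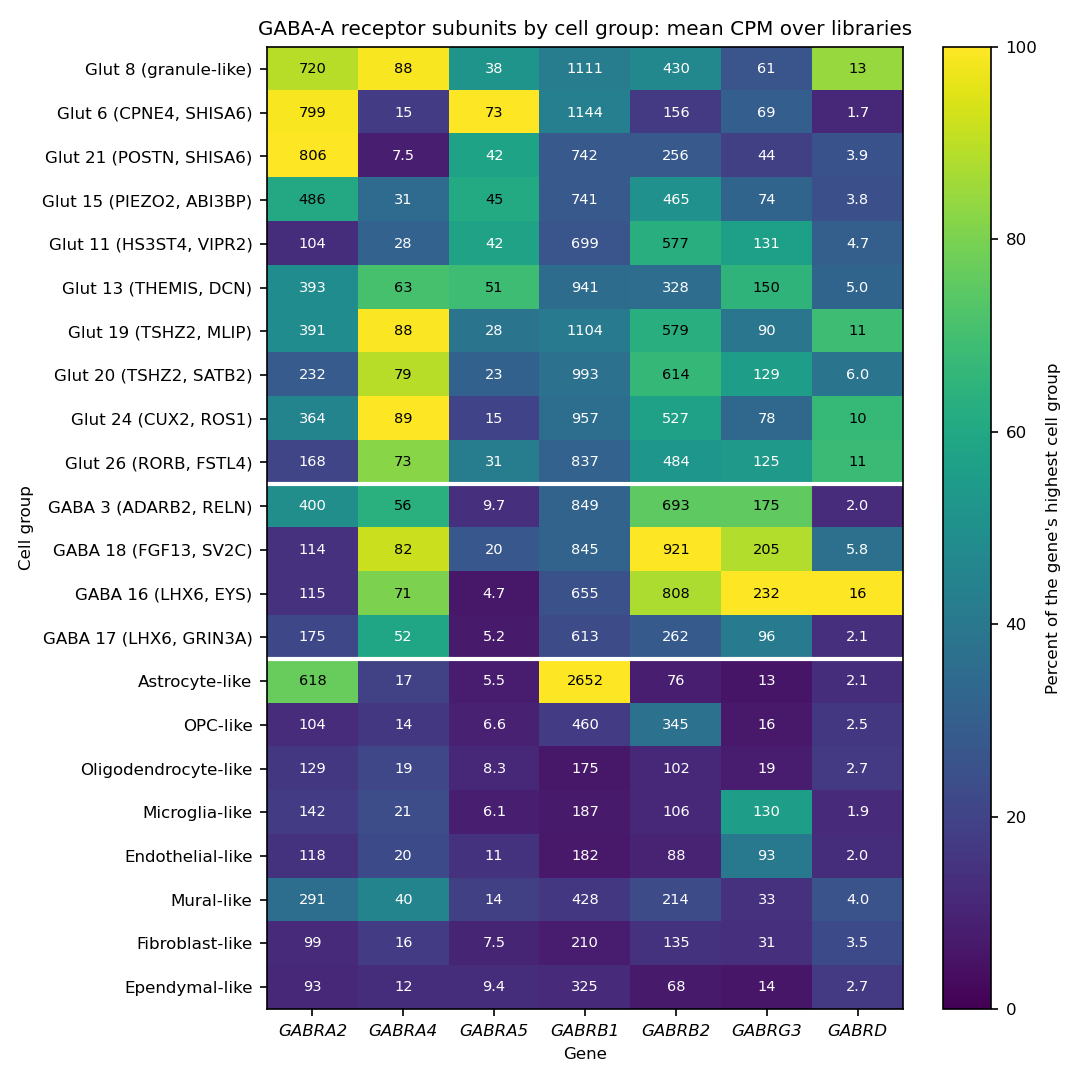
Mean CPM of each subunit gene (columns) in 22 cell groups (rows: glutamatergic clusters, GABAergic clusters, then non-neuronal classes, with leading genes in brackets); colour is the percent of the highest group for that gene, from 0 to 100. GABRB1 was highest in astrocyte-like cells (2652 CPM), GABRA5 in glutamatergic cluster 6 (73.2 CPM) and GABRB2 in GABAergic cluster 18 (921 CPM).

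Among the alpha subunits, GABRA2 differed widely among the glutamatergic clusters. It was highest in cluster 21 (806 ± 39.7 CPM, n = 5 libraries), a cluster named hippocampal pyramidal neuron-like, and in cluster 6 (799 ± 80.1 CPM, n = 5), which led with CPNE4 and SHISA6. Dentate granule neuron-like cluster 8 followed at 720 ± 117 CPM (n = 5), and these 3 groups did not differ beyond their spread. At the other end of the neurons stood cluster 11 (104 ± 28.1 CPM, n = 6), named deep layer cortical neuron-like, and GABAergic clusters 18 and 16 (114 ± 34.9 and 115 ± 26.7 CPM, n = 6 each). GABAergic cluster 3, named ADARB2 interneuron-like, was at 400 ± 114 CPM (n = 6), so that interneuron clusters also differed among themselves.

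GABRA4 ran another way although it lies near GABRA2. In the RefSeq annotation of marmoset assembly calJac240, GABRB1, GABRA4, GABRA2 and GABRG1 follow each other on chromosome 3 in that order among the receptor genes. GABRA4 was at 88.8 ± 11.2 CPM in cluster 24 (n = 3), 88.3 ± 20.7 CPM in cluster 19 and 88.0 ± 4.78 CPM in granule-like cluster 8 (n = 5 each). It was at 15.3 ± 2.67 CPM in cluster 6 and 7.48 ± 5.32 CPM in cluster 21 (n = 5 each), the clusters with the highest GABRA2, and these levels were no higher than the 17.4 ± 7.14 CPM of astrocyte-like cells (n = 6). Across the 17 cell groups tested between conditions, the Pearson correlation of mean log2(CPM + 1) was 0.21 between GABRA2 and GABRA4, which are separated by COX7B2, and 0.75 between GABRA2 and GABRB1. All points share the same libraries, and these correlations carry no test.

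GABRA5 had its highest levels in glutamatergic clusters. It was at 73.2 ± 8.44 CPM in cluster 6 (n = 5), above the next group, cluster 13 (50.6 ± 12.5 CPM, n = 5), by more than either SD. Clusters 15, 21 and 11 were at 44.6 ± 11.2, 42.4 ± 9.39 and 42.0 ± 8.88 CPM (n = 5, 5 and 6). GABAergic clusters 16 and 17, which led with LHX6, a transcription factor of interneurons born in the medial ganglionic eminence, were at 4.71 ± 2.18 and 5.24 ± 3.38 CPM (n = 6 each), which is near the 5.50 ± 1.95 CPM of astrocyte-like cells (n = 6).

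Of the beta subunits, GABRB2 was highest in interneurons. It was at 921 ± 72.6 CPM in GABAergic cluster 18, 808 ± 113 CPM in cluster 16 and 693 ± 110 CPM in cluster 3, but at 262 ± 58.8 CPM in GABAergic cluster 17 (n = 6 each), which led with GRIK1 and GRIN3A. Glutamatergic clusters ranged between 156 ± 31.1 CPM in cluster 6 (n = 5) and 614 ± 126 CPM in cluster 20 (n = 4). Cluster 6 thus held the highest GABRA5, one of the highest GABRA2 levels and the lowest neuronal GABRB2.

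GABRB1 ranged among neurons between 613 ± 98.4 CPM in GABAergic cluster 17 (n = 6) and 1144 ± 155 CPM in glutamatergic cluster 6 (n = 5). Its highest level lay outside neurons, in astrocyte-like cells, which had 2660, 2985 and 2495 CPM in the sevoflurane libraries and 2323, 2794 and 2655 CPM in the control libraries. No library of any neuron cluster reached these values. After each cell was thinned to 1000 UMIs, 88.6 ± 2.13% of astrocyte-like cells (97.6 ± 1.34% unthinned) held a GABRB1 UMI, against 62.9 ± 7.01% of cluster 6 cells (95.4 ± 4.30% unthinned) and 15.5 ± 3.31% of oligodendrocyte-like cells (27.2 ± 7.11% unthinned). Median depths per library were 2301 to 3030 UMIs for astrocyte-like cells, 9130 to 16774 UMIs for cluster 6 and 1555 to 2184 UMIs for oligodendrocyte-like cells. Thinning left out 74 astrocyte-like cells, 5 cells of cluster 6 and 335 oligodendrocyte-like cells with fewer UMIs, of which sevoflurane libraries held 27, 3 and 227 and control libraries 47, 2 and 108.

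Free RNA in a droplet suspension gives neuronal UMIs in cells that are not neurons, so each non-neuronal level was set beside the level over all kept cells of its library. In astrocyte-like cells the summed CPM of 8 pan-neuron genes was 15.1% of the whole-library level on average, with libraries between 10.7% and 18.3%. GABRB1 stood at 294% (240% to 333%) and GABRA2 at 167% (117% to 373%) in the same cells. GABRA2 in astrocyte-like cells was 618 ± 68.8 CPM (n = 6), rank 4 of the 22 groups. The highest of these shares for GABRA2 came from sevoflurane replicate 3, whose whole-library level was 192 CPM, against 431 to 526 CPM in the other 5 libraries. GABRA5, GABRB2 and GABRG3 were at 19.5%, 19.8% and 14.3% in astrocyte-like cells, near the pan-neuron share, and GABRA4 was at 35.6%, with a range from 13.3% to 47.5% that met the pan-neuron range. In ependymal-like cells GABRB1 was at 325 ± 81.7 CPM (n = 5), or 34.7% of the whole-library level (25.7% to 48.1%), where the pan-neuron genes were at 16.2% (14.3% to 17.9%).

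In oligodendrocyte precursor-like (OPC-like) cells both beta subunit genes were counted. GABRB2 was at 345 ± 30.3 CPM there (n = 6) and GABRB1 at 460 ± 77.8 CPM (n = 6). GABRB2 reached 90.9% of the whole-library level (78.9% to 106%) while the pan-neuron genes reached 47.8% (38.4% to 54.9%), GABRB1 reached 50.8% (38.8% to 67.7%) and GABRA2 reached 24%. The pan-neuron share was thus higher in OPC-like than in astrocyte-like cells, and the part of neuronal RNA in the GABRB2 level was not tested. Oligodendrocyte-like cells had every member between 19.4% and 46.2%, where the pan-neuron genes were at 24.5%.

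GABRG3, a gamma subunit gene, was highest in GABAergic clusters 16, 18 and 3 (232 ± 50.3, 205 ± 38.9 and 175 ± 37.5 CPM, n = 6 each). It was also present in microglia-like cells (130 ± 56.4 CPM, n = 6) and endothelial-like cells (93.2 ± 46.9 CPM, n = 6). These levels were 159% and 112% of the whole-library level, against pan-neuron shares of 20.6% and 19.9%. The ranges over libraries were wide, 79.4% to 321% in microglia-like and 55.1% to 200% in endothelial-like cells. At 1000 UMIs per cell, 9.99 ± 4.38% of microglia-like cells held a GABRG3 UMI (18.02 ± 7.26% unthinned), against 1.32 ± 0.61% of astrocyte-like cells (3.50 ± 2.18% unthinned) and 2.0 ± 1.28% of oligodendrocyte-like cells (3.58 ± 2.61% unthinned). Median depths of microglia-like cells were 1465 to 2089 UMIs per library. Thinning left out 63 microglia-like cells of sevoflurane libraries and 26 of control libraries.

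**Figure D2:**
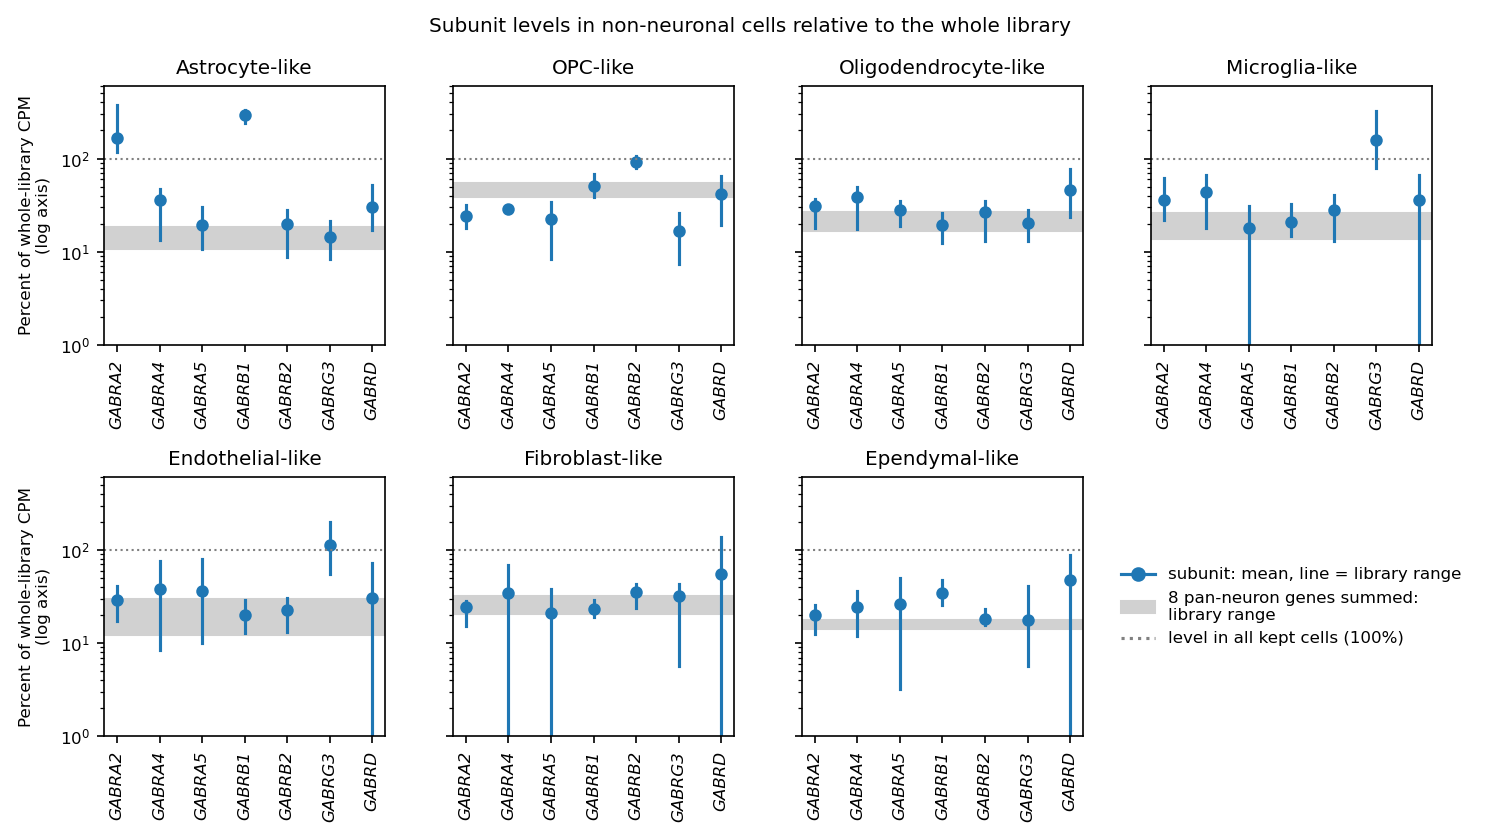
Level of each subunit gene in 7 non-neuronal classes as a percent of its CPM over all kept cells of the same library (log axis; points are means over libraries, lines the range, and lines that meet the lower edge include a library at 0). The grey band is the library range of 8 pan-neuron genes summed. GABRB1 and GABRA2 in astrocyte-like cells, GABRB1 in ependymal-like cells, GABRB2 in OPC-like cells and GABRG3 in microglia-like and endothelial-like cells lay above it over their whole range. GABRA2, GABRA4, GABRA5 and GABRG3 in OPC-like cells lay below it over their whole range. The other points had a range that met it, with means above, within or below it.

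GABRD, the delta subunit gene, was the most sparsely counted member, with 1535 UMIs in all 6 libraries and a UMI in 3.28% of kept cells. It was highest in GABAergic cluster 16 (15.6 ± 1.78 CPM, n = 6) and granule-like cluster 8 (13.2 ± 2.76 CPM, n = 5). Clusters 19, 26 and 24 followed at 10.8 ± 5.74, 10.6 ± 5.55 and 10.4 ± 2.94 CPM (n = 5, 3 and 3). In clusters 6 and 21 it was at 1.71 ± 0.77 and 3.91 ± 3.05 CPM (n = 5 each), against 2.07 ± 1.44 CPM in astrocyte-like cells (n = 6). GABRD and GABRA4, which assemble together in rodent granule neurons, were thus both high in cluster 8 and both low in cluster 6. In cluster 21 GABRA4 had its lowest level, while GABRD was at rank 11 of the 22 groups. The correlation of GABRD with GABRA4 across the 17 groups was 0.73, and that of GABRD with GABRB2 was 0.75.

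Genes whose pattern over the 17 cell groups was most like each subunit were listed by the highest Pearson correlation of mean log2(CPM + 1), among 9724 genes reaching 20 CPM in at least 1 group. For GABRA2 these were CCSER1 (0.83), RYR2 and EPHA4 (0.81 each), and for GABRA4 NECAB1 (0.90), SHISA9 (0.87) and OPRD1 (0.86). For GABRA5 they were STUM, ADAM11 (0.95 each) and AK5 (0.94). GABRB1 was closest to PRELID3A (0.93), TRIM9 and CTNNA2 (0.92 each), and GABRB2 to SYT16 (0.96), ASXL3 (0.93) and SORCS3 (0.92). GABRG3 was closest to TBC1D30 (0.89), TNFRSF13B (0.88) and NOL4L (0.86), and GABRD to SLC24A4 (0.87), ZDBF2 (0.86) and PPFIA2 (0.85). All 17 points share the same 6 libraries, and nothing about shared function was measured.

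Between sevoflurane and control libraries, no subunit passed the test in any cell group. The 7 genes gave 92 tests that passed the filter on low counts, of 119 possible in 17 groups. None reached an adjusted p under 0.05 in edgeR's quasi-likelihood test, with Benjamini-Hochberg adjustment over all genes of a group. At an unadjusted p under 0.05 there were 19, of which 15 were lower after sevoflurane, and DESeq2 called 1. Of all genes tested with edgeR, 1952 of 12350 in cluster 19 and 1864 of 14327 in cluster 8 had an unadjusted p under 0.05. So did 1501 of 13110 in GABAergic neuron-like, 748 of 11113 in astrocyte-like and 307 of 6588 in endothelial-like cells. Over all genes, the percentage called was 2.69 in cluster 20, 0.964 in cluster 11, 0.923 in cluster 19, 0.789 in cluster 13, 0.468 in cluster 8 and 0.292 in cluster 21. It was 0.0544 in cluster 15, 0.00758 in cluster 6 and 0.114 in GABAergic neuron-like cells. Among non-neuronal groups it was 0.105 in microglia-like, 0.0689 in fibroblast-like, 0.022 in OPC-like, 0.018 in astrocyte-like and 0.0172 in oligodendrocyte-like cells, and 0 in endothelial-like, ependymal-like and mural-like cells. Without sevoflurane replicate 3 the count of subunits called was 1, GABRB1 in mural-like cells, over the 10 groups that had to be refitted. That fit held 1 sevoflurane library of 22 mural-like cells, which was assumed to vary like the control libraries.

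GABRA2 had a lower estimate after sevoflurane in 9 of 9 neuron groups. The groups share the same libraries, so they do not count as separate observations. In granule-like cluster 8, GABRA2 was at 600 and 605 CPM in sevoflurane replicates 1 and 2, against 731, 800 and 865 CPM in the 3 control libraries. Both sevoflurane libraries lay below every control library, and the log2 fold change was -0.50 ± 0.10 (SE; 95% interval -0.73 to -0.26; edgeR adjusted p = 0.0819). DESeq2 called this difference (log2 -0.51, adjusted p = 0.00283), the single member it called. Of all 14327 genes tested in this cluster DESeq2 called 416, where edgeR called 67. The library with the fewest cells here, control replicate 2, had 290 cells, against 950 to 3053 in the others used. Summed markers of glutamatergic neurons were also lower in this cluster after sevoflurane (883 to 913 CPM, against 947 to 1033 CPM in controls), as were those of GABAergic neurons (111 to 148 CPM, against 170 to 233 CPM), while the pan-neuron genes overlapped, and their part in the result was not tested.

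In cluster 11, GABRA2 was at 65.0, 90.3 and 92.5 CPM in the sevoflurane libraries and 132, 106 and 141 CPM in the control libraries. The groups did not overlap (log2 -0.68 ± 0.17, 95% interval -1.07 to -0.30, edgeR adjusted p = 0.103). The pan-neuron genes summed to 20722 to 24864 CPM there after sevoflurane and 17189 to 20079 CPM in controls, a gap of the other sign whose part was not tested. In cluster 13 it was at 320 and 226 CPM in sevoflurane replicates 1 and 3, against 432, 588 and 401 CPM in control libraries (log2 -0.90 ± 0.24, 95% interval -1.42 to -0.37, edgeR adjusted p = 0.131). The groups again did not overlap, and cluster 13 held as few as 23 cells in a library.

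GABRA2 was below every control library in each sevoflurane library used in 7 of the 9 neuron groups, and with sevoflurane replicate 3 left out the count was also 7. That library took part in 3 of the 9 groups (clusters 11 and 13 and GABAergic neuron-like cells), so the others could not change, and cluster 13 was left with 1 sevoflurane library of 23 cells. The percentage of all genes lower in this way was 9.93 in cluster 8, 6.81 in cluster 11, 11.9 in cluster 13, 10.7 in cluster 6, 11.6 in cluster 15, 16.8 in cluster 19, 15.4 in cluster 20, 10.2 in cluster 21 and 5.26 in GABAergic neuron-like cells. The exceptions were GABAergic neuron-like cells (log2 -0.49 ± 0.23, edgeR adjusted p = 0.461) and cluster 21 (log2 -0.07 ± 0.17, 95% interval -0.44 to 0.29, edgeR adjusted p = 0.974). The GABAergic class pools clusters of unlike GABRA2 level, with cluster 3 the highest. Cluster 3 held 173, 102 and 280 of the 473, 330 and 937 class cells in sevoflurane libraries. In control libraries it held 247, 256 and 241 of 691, 711 and 635. The part of these shares in the class estimate was not tested. Within the GABAergic clusters the groups did not overlap in cluster 17 alone. There GABRA2 was at 173, 137 and 133 CPM in sevoflurane libraries and 191, 205 and 214 CPM in control libraries. The percentage of all genes lower in this way was not computed for the GABAergic clusters, which are parts of the class.

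Non-neuronal cells held GABRA2 at lower levels in the sevoflurane libraries in part of the classes. In oligodendrocyte-like cells it was at 134, 88.5 and 70.3 CPM in sevoflurane libraries and 141, 164 and 179 CPM in control libraries (log2 -0.75 ± 0.21, edgeR adjusted p = 0.489). In OPC-like cells it was at 106, 88.9 and 41.4 CPM after sevoflurane and 138, 106 and 141 CPM in controls, where the lowest control library was just under the highest sevoflurane library (log2 -0.69 ± 0.24, edgeR adjusted p = 0.597). The lowest value in both classes was that of sevoflurane replicate 3, whose whole-library GABRA2 was also lowest. Without it the estimates were -0.58 and -0.44. Of the 1298 oligodendrocyte-like cells of that library, 1013 lay in cluster 25, where each other library held 1 to 79 cells. The part of this difference in cells was not tested. The summed pan-neuron genes in oligodendrocyte-like cells ranged from 3272 to 5917 CPM in sevoflurane libraries and 4231 to 5015 CPM in control libraries, and their part in the difference was not tested.

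Astrocyte-like cells, which held the highest GABRA2 outside neurons, gave an estimate of the other sign. GABRA2 was at 612, 668 and 719 CPM in sevoflurane libraries and 530, 562 and 615 CPM in control libraries. The groups overlapped slightly (log2 0.23 ± 0.12, 95% interval -0.05 to 0.50, edgeR adjusted p = 0.789). GABRB1 in the same cells had a log2 fold change of 0.06 ± 0.12 (95% interval -0.20 to 0.32, edgeR adjusted p = 0.966).

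GABRB1 had a lower estimate in 8 of 9 neuron groups, and in 6 of them each sevoflurane library was below every control library. With sevoflurane replicate 3 left out these counts were also 8 and 6, where again 3 groups could change. With all libraries used, the 6 groups were GABAergic neuron-like cells and clusters 6, 8, 11, 13 and 20. The percentage of all genes lower with no overlap was 10.7 in cluster 6, 9.93 in cluster 8 and 6.81 in cluster 11. It was 11.9 in cluster 13 and 15.4 in cluster 20. In GABAergic neuron-like cells GABRB1 was at 682, 596 and 681 CPM in sevoflurane libraries and 857, 806 and 801 CPM in control libraries. The groups did not overlap (log2 -0.39 ± 0.10, 95% interval -0.63 to -0.16, edgeR adjusted p = 0.185). The same held within 3 of the 4 GABAergic clusters, cluster 18 being the exception. These clusters are parts of the class and share its libraries, so they are not further observations. The percentage of all genes lower with no overlap was 5.26 in the class and was not computed for its clusters. The 8 pan-neuron genes summed to 22542 to 27085 CPM in the GABAergic neuron-like cells of sevoflurane libraries and 18497 to 21015 CPM in those of control libraries, so that they were higher where GABRB1 was lower. The 9 GABAergic markers of the same cells summed to 7250 to 9666 CPM after sevoflurane and 10318 to 10755 CPM in controls, and 9 astrocyte markers to 387 to 446 CPM after sevoflurane and 447 to 742 CPM in controls. The part of these markers in the result was not tested.

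In cluster 8, GABRB1 was at 1044 and 955 CPM in sevoflurane libraries and 1188, 1169 and 1198 CPM in control libraries. The groups did not overlap (log2 -0.33 ± 0.09, 95% interval -0.55 to -0.12, edgeR adjusted p = 0.166). In cluster 6 it was at 1044 and 932 CPM after sevoflurane and 1215, 1325 and 1205 CPM in controls (log2 -0.40 ± 0.12, 95% interval -0.66 to -0.13, edgeR adjusted p = 0.231). In cluster 21 the groups overlapped (log2 0.09 ± 0.19, edgeR adjusted p = 0.964). In cluster 19 GABRB1 was at 1195 and 1118 CPM in sevoflurane libraries, above the 1082, 1096 and 1028 CPM of control libraries, while the estimate after normalisation was -0.06 ± 0.16 (edgeR adjusted p = 0.908). The percentage of all genes higher in this way was 25.2 in cluster 19.

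**Figure D3:**
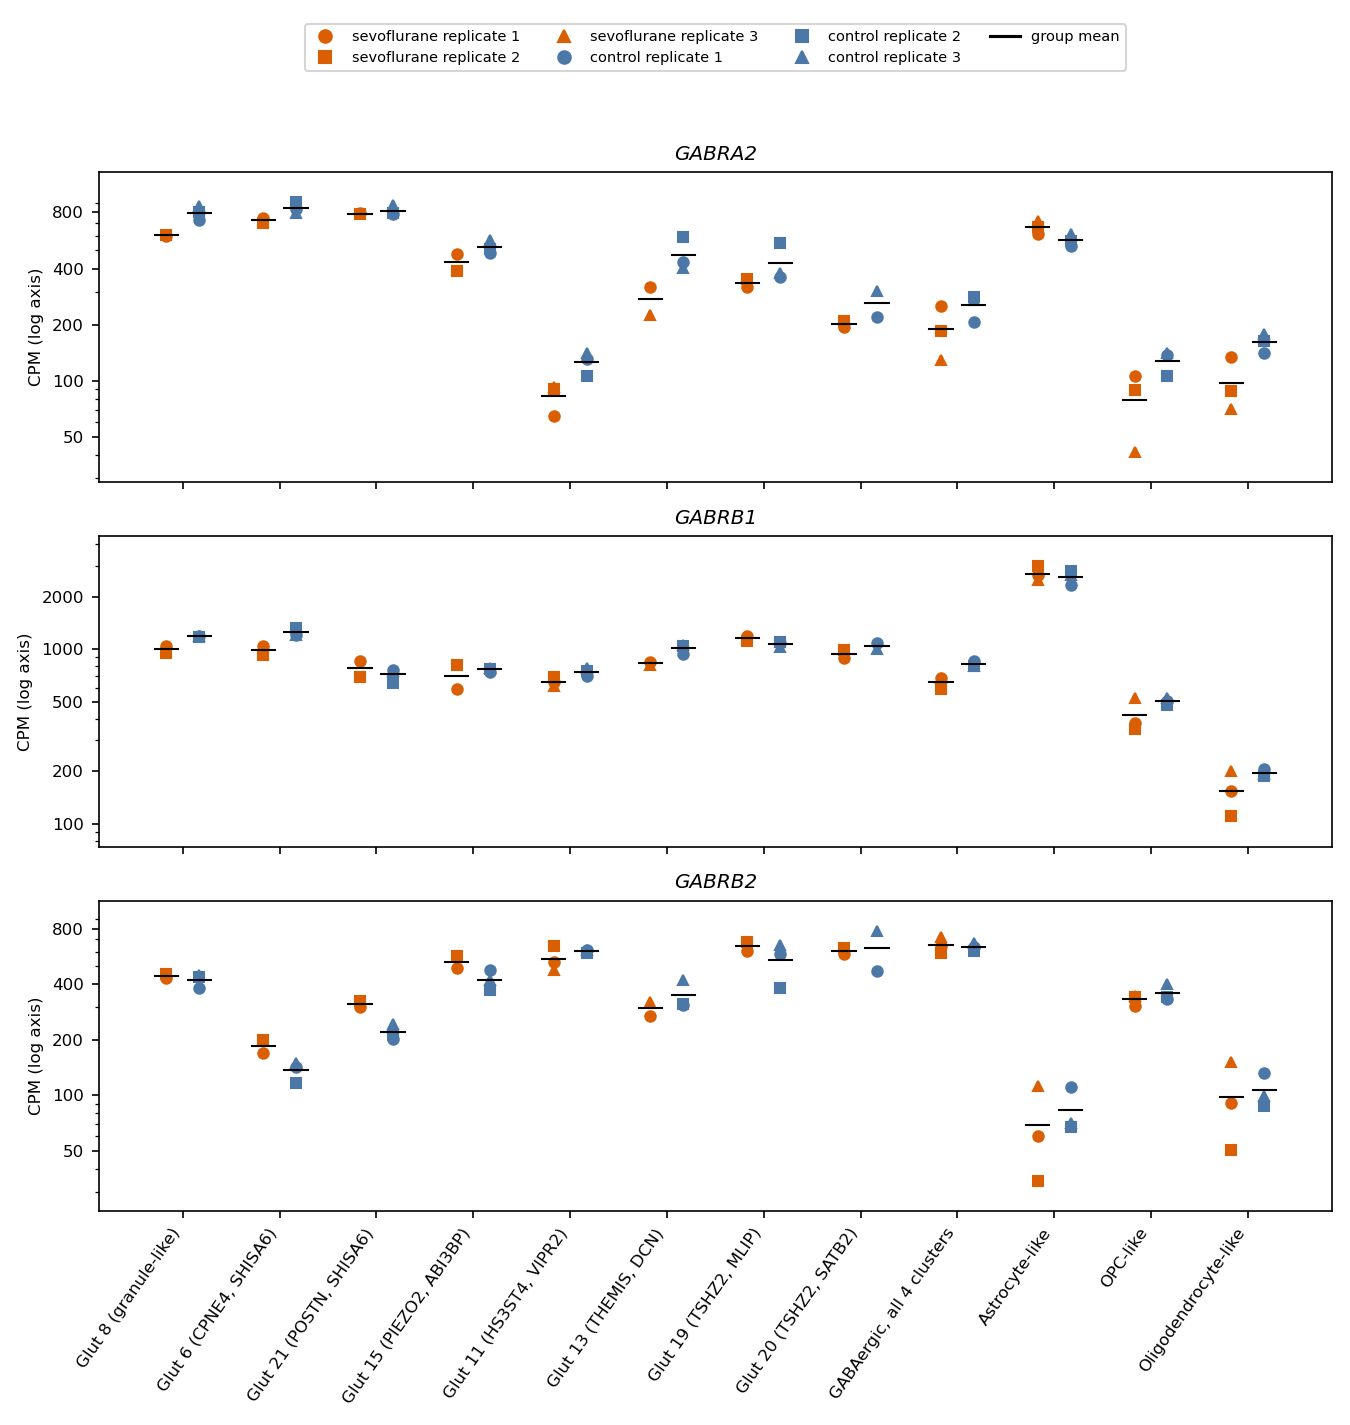
CPM (log axis) of GABRA2, GABRB1 and GABRB2 in each library for 9 neuron groups and 3 glial classes, sevoflurane in orange to the left of control in blue, marker shape giving the replicate and bars the group mean. GABRA2 in clusters 8, 11 and 13 showed no overlap between conditions, while GABRA2 in astrocyte-like cells ran the other way.

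GABRB2 gave estimates of both signs. In cluster 6 it was at 169 and 201 CPM in sevoflurane libraries, above the 143, 117 and 151 CPM of control libraries (log2 0.37 ± 0.14, 95% interval 0.06 to 0.68, edgeR adjusted p = 0.324). In cluster 21 it was at 300 and 325 CPM after sevoflurane and 202, 213 and 243 CPM in controls (log2 0.50 ± 0.20, 95% interval 0.09 to 0.91, edgeR adjusted p = 0.420). The percentage of all genes higher with no overlap was 20.1 in cluster 6 and 12.5 in cluster 21. In GABAergic neuron-like cells, where GABRB2 was highest, the log2 fold change was -0.03 ± 0.11, with a 95% interval from -0.28 to 0.21 (edgeR adjusted p = 0.942). Cluster 6 and cluster 21, both named or scored by pyramidal neuron markers, were the glutamatergic clusters with the lowest GABRB2. Cluster 15 also scored highest for pyramidal neuron markers (0.501, against 0.472 for deep layer markers), and its GABRB2 was at 465 ± 73.6 CPM.

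GABRA5 had a lower estimate in 8 of 9 neuron groups and GABRA4 in 3 of the 8 in which it was tested. In cluster 6, where GABRA5 was highest, it was at 71.6 and 67.2 CPM in sevoflurane libraries and 83.4, 63.5 and 80.1 CPM in control libraries. The groups overlapped (log2 -0.18 ± 0.15, 95% interval -0.52 to 0.15, edgeR adjusted p = 0.679). GABRA4 in cluster 8 was at 91.9 and 94.2 CPM after sevoflurane and 84.2, 83.6 and 86.2 CPM in controls. The values did not overlap, but the estimate after normalisation was near 0 (log2 0.05 ± 0.10, 95% interval -0.19 to 0.28, edgeR adjusted p = 0.905). The percentage of all genes higher with no overlap was 23.6 in cluster 8.

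GABRG3 in cluster 11 was at 141, 108 and 249 CPM in sevoflurane libraries and 117, 89.3 and 79.1 CPM in control libraries (log2 0.73 ± 0.29, 95% interval 0.08 to 1.37, edgeR adjusted p = 0.314). The groups overlapped, sevoflurane replicate 3 was the high value, and without it the estimate was 0.27. In microglia-like cells it was at 138, 205 and 161 CPM after sevoflurane and 74.1, 146 and 53.4 CPM in controls (log2 0.88 ± 0.34, 95% interval 0.14 to 1.63, edgeR adjusted p = 0.606), where control replicate 2 overlapped the sevoflurane libraries. Summed markers of macrophages and T cells were at 144 to 205 CPM in the microglia-like cells of sevoflurane libraries and 64.4 to 74.1 CPM in those of controls, with CD163 and CD3E of the 9 markers at 0, and their part in the GABRG3 values was not tested. In endothelial-like cells it ran the other way, at 61.0, 61.4 and 77.6 CPM after sevoflurane and 78.1, 185 and 96.1 CPM in controls (log2 -0.74 ± 0.38, edgeR adjusted p = 1.000). GABRD was tested in 5 groups and had 95% intervals reaching from -0.76 to 0.38 in cluster 8 and from -0.28 to 2.42 in cluster 19, so that the precision for GABRD differed between groups: the interval in cluster 8 left out a 2-fold change in either direction and that in cluster 19 did not.

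**Figure D4:**
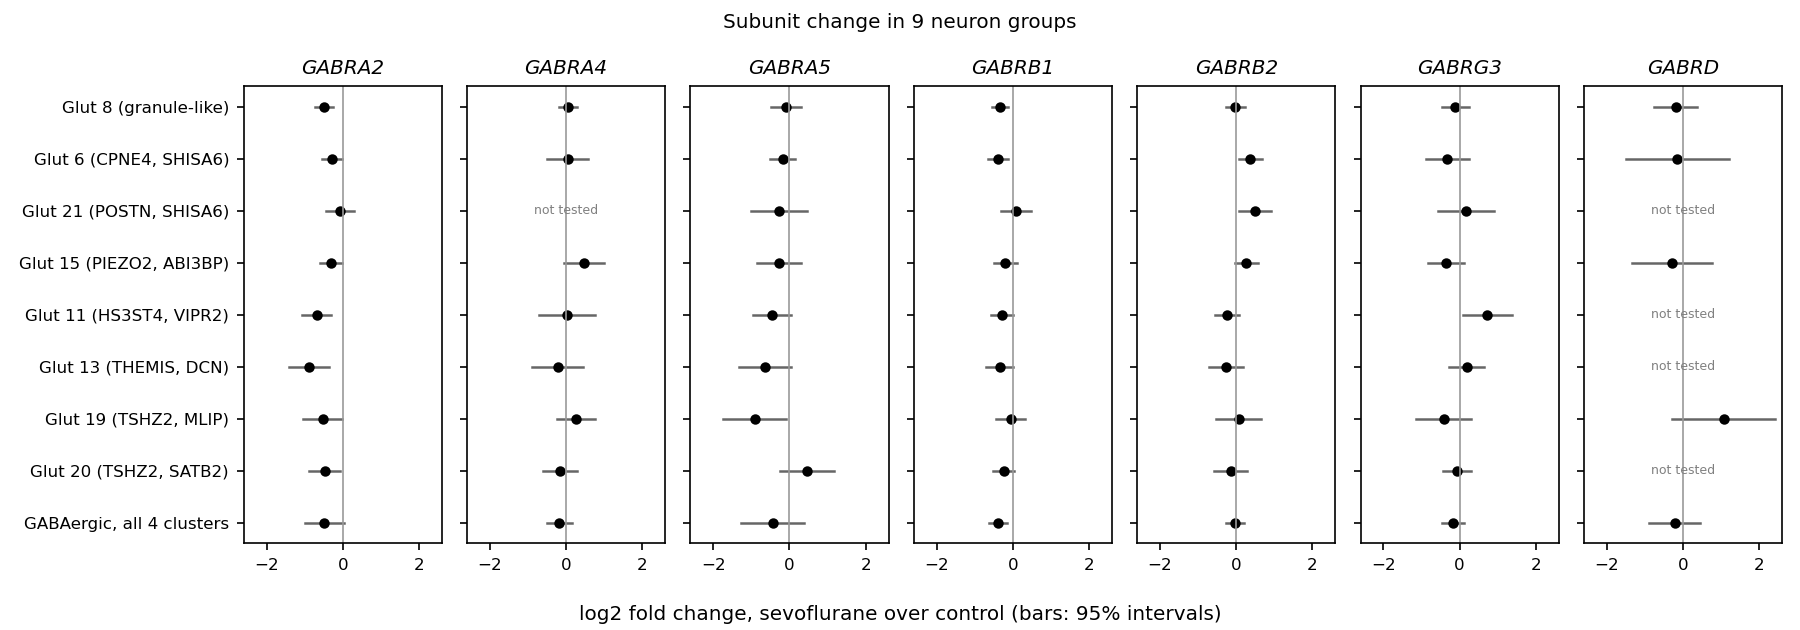
Log2 fold change of each subunit, sevoflurane over control, in 9 neuron groups (rows), with points at the edgeR estimate and bars giving 95% intervals; pairs that did not pass the filter on low counts are marked as not tested. GABRA2 estimates lay below 0 in all 9 groups, while GABRB2 lay on both sides.

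The median log2 fold change over the members tested was -0.22 in GABAergic neuron-like cells, -0.11 in cluster 8, -0.26 in cluster 11, -0.18 in cluster 6 and -0.31 in cluster 13. The median of all genes tested was 0.00, 0.02, 0.01, 0.01 and 0.01 in the same groups. In cluster 21 the members' median was 0.09 and in cluster 19 -0.06, where the median of all genes was -0.06 as well. In clusters 15 and 20 it was -0.275 and -0.157. Among non-neuronal groups the members' median was -0.323 in ependymal-like, -0.302 in microglia-like, -0.233 in oligodendrocyte-like and -0.141 in OPC-like cells. It was -0.068 in fibroblast-like, -0.063 in astrocyte-like, 0.073 in endothelial-like and 0.733 in mural-like cells. The ependymal-like, fibroblast-like and mural-like medians rest on 3 members each.

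The other genes of GABA signalling were called in 2 of 763 tests by edgeR, in 11 by DESeq2 and in 29 by edgeR run on unfiltered counts. In cluster 19, NSF, an ATPase that frees SNARE complexes and binds GABA-A receptor beta subunits, fell to 165 and 143 CPM after sevoflurane, against 381, 332 and 308 CPM in control libraries (log2 -1.30 ± 0.19, edgeR adjusted p = 0.0352). STK39, a kinase that acts on chloride cotransporters, fell in the same cluster to 95.8 and 73.4 CPM after sevoflurane, against 166, 183 and 176 CPM in controls (log2 -1.19 ± 0.20, edgeR adjusted p = 0.0466). For both genes the conditions did not overlap, and the percentage of all genes lower in this way was 16.8 in cluster 19. The smallest library of cluster 19 held 38 cells, and neither call held with the replicate block (edgeR adjusted p = 0.0756 for NSF and 0.147 for STK39). Both calls were also lost without any 1 of the libraries used other than control replicate 2, with adjusted p between 0.0719 and 0.324. The estimates with 1 library left out ran from -1.52 to -1.18 for NSF and from -1.52 to -1.01 for STK39, and leaving out a sevoflurane library left 1 in that condition. DESeq2 called both (adjusted p = 0.000143 for NSF and 0.00335 for STK39). Of all 12350 genes tested in cluster 19 it called 419, where edgeR called 114. Summed astrocyte markers in cluster 19 were at 1073 to 1501 CPM after sevoflurane and 532 to 877 CPM in controls, and OPC markers at 355 to 383 CPM after sevoflurane and 683 to 1160 CPM in controls, and their part was not tested. NSF was the 1 edgeR call among 340 tests of receptor scaffold and trafficking genes, and STK39 the 1 call among 126 tests of chloride cotransporters and their kinases. edgeR called none of the 81 tests of other GABA-A subunits, the 110 of GABA synthesis, transport and breakdown and the 106 of GABA-B receptors and partners. At an unadjusted p under 0.05 these lists held 20, 13 and 10 tests. DESeq2 called 3, 1 and 0 of them, and edgeR on unfiltered counts 9, 2 and 4. Their lowest edgeR p-values belonged to GABRR2, a rho subunit, in GABAergic neuron-like cells (25.5, 27.3 and 47.4 CPM after sevoflurane and 10.8, 12.3 and 8.04 CPM in controls, edgeR adjusted p = 0.0854), ABAT, which breaks GABA down, in fibroblast-like cells (log2 1.62 ± 0.31, edgeR adjusted p = 0.125), and GABBR1, a GABA-B subunit, in cluster 15 (log2 -0.47 ± 0.12, edgeR adjusted p = 0.176). DESeq2 called GABRR2 in these GABAergic neuron-like cells (adjusted p = 0.000137), where it called 206 of all 13110 genes and edgeR called 15. It called neither ABAT (adjusted p = 0.691) nor GABBR1 (adjusted p = 0.147). On unfiltered counts edgeR called all 3, with adjusted p of 0.00224 for GABRR2, 0.0184 for ABAT and 0.0408 for GABBR1. ABAT was also called without sevoflurane replicate 1 (log2 1.64, edgeR adjusted p = 0.0255) or 3 (log2 1.63, edgeR adjusted p = 0.0104), each of which left 1 sevoflurane library of fibroblast-like cells.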

How the data were processed

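Per the labels' protocols, hippocampi were digested with collagenase and suspensions were cryopreserved, then prepared with the 10x Genomics 3′ v3.1 kit. Per the submitters' processing notes, CASAVA 1.8, Cell Ranger and Seurat were used, and the file headers give Cell Ranger 6.1.1. No genome build or annotation was named (not given in the sources used here). Deposited values are raw UMI counts per gene and barcode, with no normalisation by the authors. Cells with at least 500 UMIs and 200 genes were kept, and every barcode met both. Doublets were marked with scrublet in scanpy 1.11.5 at a score of 0.19, the median of the automatic thresholds of the libraries, and removed. After scaling each cell to 10000 counts and taking logs, 2000 variable genes, with receptor genes excluded, were reduced to 30 components and clustered by the Leiden method in igraph 0.11.9 at resolution 1 with 15 neighbours. A cluster took the name of its best marker list at a score of at least 0.25, with at least 3 markers in 10% of cells and the second list below 0.6 of the best. UMIs were summed per library and cell group and tested with edgeR 4.0.16 (R 4.3.3; filterByExpr, TMM factors, quasi-likelihood F test, Benjamini-Hochberg over all genes of a group). DESeq2 1.42.0 was an alternative. The scripts were tested on simulated data. All 7 subunits were named in every group, with each called gene of the pathway lists, the lowest-p gene of a list with none called, and the 3 genes most correlated with each subunit. The members and lists were chosen with earlier results of these data known.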

Additional observations from a re-analysis of the deposited data

Results flagged for a closer look

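Some subunits moved in opposite directions in different cell groups, with every sevoflurane library on one side of the control libraries, and the difference was not tested. GABRB1 was lower after sevoflurane in GABAergic neuron-like cells (log2 -0.394), cluster 6 (-0.397), cluster 8 (-0.335), cluster 11 (-0.287), cluster 13 (-0.347) and cluster 20 (-0.24), and higher in mural-like cells (0.979), where 13.7% of all genes were higher with no overlap. The percentage of all genes lower with no overlap was 5.26, 10.7, 9.93, 6.81, 11.9 and 15.4 in those 6 neuron groups, in the same order. The mural-like value rests on 125 cells in all libraries together, 22 to 30 in each library used. The 8 pan-neuron genes summed to 7681 to 14332 CPM in the mural-like cells of sevoflurane libraries and 7402 to 7481 CPM in those of controls, and the 7 mural markers to 1280 to 1512 CPM after sevoflurane and 2251 to 3025 CPM in controls, and their part was not tested. GABRA5 was lower in cluster 19 (log2 -0.917) and in oligodendrocyte-like cells (-0.752), and higher in cluster 20 (0.459). The percentage of all genes with no overlap in the same direction was 16.8 in cluster 19, 5.95 in oligodendrocyte-like cells and 30.3 in cluster 20.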

How the results depend on the processing

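edgeR called 0 of the 92 subunit tests, DESeq2 called 1 (GABRA2 in cluster 8), and edgeR with no filter on low counts called 5. These were GABRA2 in OPC-like cells (adjusted p = 0.0304) and in clusters 8, 11 and 13 (adjusted p = 0.0123, 0.00722 and 0.00537), and GABRG3 in cluster 11 (adjusted p = 0.00458). Size factors by relative log expression called none. Leaving out 1 library in turn gave 0 to 2 subunits called: GABRA2 and GABRB2 in cluster 20 without control replicate 1 (log2 -0.71 and -0.48), GABRA2 in cluster 13 without sevoflurane replicate 1 (log2 -1.13), and GABRB1 in mural-like cells without sevoflurane replicate 3 (log2 1.479). Each of these 4 calls came from a fit with 1 library in a condition, which was assumed to vary like the libraries of the other condition. Over all genes and groups, 644 genes were called, with 2014 by DESeq2, 5386 with no filter, and 173 to 1277 with 1 library left out, the last over the groups that could still be fitted. The causes of these shifts were not tested.

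No pairing by replicate number was seen: correlations of same-numbered deviations ran from -0.31 to 0.13 over the cell groups. With so few libraries of each condition, they cannot decide whether same-numbered libraries shared an animal or a batch. With the replicate block, 235 genes were called over 16 groups, where 392 were called without it. The block could not be fitted in cluster 20, called no subunit, and turned the sign of 3 small estimates: GABRA2 in endothelial-like cells (log2 -0.029), GABRB2 in cluster 8 (0.027) and GABRG3 in cluster 21 (-0.062). With no filter, GABRA2 in endothelial-like cells (-0.032), GABRB2 in cluster 8 (0.008), GABRA4 in cluster 11 (-0.006) and GABRB2 in cluster 19 (-0.016) changed sign. NSF and STK39 in cluster 19 lost their calls with the block and without control replicate 1 or 3 or sevoflurane replicate 1 or 2, with estimates from -1.52 to -1.01. Leaving out a library changed the sign in 29 of the 92 results, none of them GABRA2 in a neuron group. For GABRA2 the lowest to highest estimates were -0.439 to 0.303 in Endothelial-like cells, -0.941 to 0.148 in Fibroblast-like cells and -1.306 to 1.456 in Mural-like cells. For GABRA4 the lowest to highest estimates were -0.459 to 0.318 in Astrocyte-like cells, -0.539 to 0.177 in Oligodendrocyte-like cells, -0.155 to 0.149 in cluster 6, -0.271 to 0.486 in cluster 11 and -0.393 to 0.096 in cluster 13. For GABRA5 the lowest to highest estimates were -0.205 to 0.089 in cluster 8 and -0.903 to 0.016 in cluster 13. For GABRB1 the lowest to highest estimates were -0.001 to 0.118 in Astrocyte-like cells, -0.096 to 0.34 in Endothelial-like cells, -0.25 to 0.143 in Fibroblast-like cells, -0.199 to 0.018 in cluster 19 and -0.118 to 0.287 in cluster 21. For GABRB2 the lowest to highest estimates were -0.798 to 0.082 in Astrocyte-like cells, -0.247 to 0.146 in Ependymal-like cells, -0.108 to 0.038 in GABAergic neuron-like cells, -0.628 to 0.206 in Oligodendrocyte-like cells, -0.103 to 0.011 in cluster 8, -0.102 to 0.263 in cluster 19 and -0.484 to 0.257 in cluster 20. For GABRG3 the lowest to highest estimates were -1.038 to 0.25 in Astrocyte-like cells, -0.737 to 0.7 in OPC-like cells, -0.168 to 0.898 in Oligodendrocyte-like cells and -0.264 to 0.521 in cluster 21. For GABRD the lowest to highest estimates were -0.938 to 0.364 in cluster 6, -0.403 to 0.081 in cluster 8 and -0.555 to 0.172 in cluster 15.

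Levels kept within 1 SD in 147 of 161 cases without doublet removal and in all 161 with sevoflurane replicate 3 left out, a setting chosen after the data were seen. The largest shift for the highest levels was GABRB1 in astrocyte-like cells, 2274 CPM without doublet removal. Clustering with the receptor genes kept gave the same cells, since 0 of them were among the variable genes. The depth limits GABRD and every group under 100 cells a library.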
